A study of Mus musculus with 7 samples.

Results

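HOX genes encode homeodomain transcription factors that lie in 4 clusters and are numbered by paralog group along each cluster. The genes examined here are 38 HOX genes, found by symbol among the 23583 gene entries of the expression tables: 10 of the Hoxa cluster on chromosome 6, 10 of Hoxb on chromosome 11, 9 of Hoxc on chromosome 15 and 9 of Hoxd on chromosome 2. They were described with the CpG methylation of each locus and of the 2 kb on either side, and with the transcription factor peaks in the 4 clusters. The material was primary dermal fibroblasts of female FVB/N mice, kept in culture for 8 days in DMEM/F12 GlutaMAX with 10% serum. Cells were left untreated or received thapsigargin for 3 h, which stops calcium from being pumped into the endoplasmic reticulum (ER) and so brings about ER stress and the bZIP factor ATF4. RNA was sequenced in 1 untreated and 1 thapsigargin library. CEBPB, another bZIP factor, was immunoprecipitated in 1 untreated and 1 thapsigargin library, and ATF4 in 1 thapsigargin library. The 2 bisulfite libraries of untreated cells stood as 1 pooled table. The sources used here give neither the age nor the number of the mice, nor the body site of the skin.

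In the embryo, genes of low paralog number are switched on first and reach far forward in the body, and genes of high number act in the lumbar, sacral and tail regions and the distal limb. Polycomb complexes keep HOX genes silent outside their domains, Trithorax complexes keep them active, and retinoic acid sets their front borders. HOX proteins bind DNA with TALE homeodomain partners such as PBX and MEIS. Fibroblasts of adult skin keep a HOX pattern that records the body site they came from, also in culture.

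A near-silent HOX gene could have unmethylated DNA before its start and a transcribed one partly methylated DNA, as the upstream sequences of 3 genes show. Each is the stretch of up to 250 bases before a RefSeq start, found once in the NCBIM37 (mm9) genome by its sequence, printed 5′ to 3′ on the gene's strand with each CpG in capitals. Hoxa13, on the minus strand at chr6:52210875-52211124, was close to silent and held 35 CpGs with a mean methylation of 0.771%. Hoxd4, on the plus strand at chr2:74559785-74560034, was transcribed and held 3 CpGs with a mean of 44.2%. Hoxb8, on the plus strand at chr11:96142969-96143218, was transcribed and held 12 CpGs with a mean of 35.7%. Of the exon bases of Hoxd4, 67.4% are shared with Hoxd3, and of those of Hoxb8, 40.4% with Hoxb7. How much of the RNA counted for Hoxd4 and Hoxb8 began at the starts shown was not tested.
Hoxa13 upstream: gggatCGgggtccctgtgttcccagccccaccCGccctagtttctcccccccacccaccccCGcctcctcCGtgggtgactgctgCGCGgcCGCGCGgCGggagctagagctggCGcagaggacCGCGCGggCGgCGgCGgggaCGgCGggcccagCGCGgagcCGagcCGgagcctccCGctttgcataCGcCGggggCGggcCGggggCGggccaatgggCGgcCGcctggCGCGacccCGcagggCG
Hoxd4 upstream: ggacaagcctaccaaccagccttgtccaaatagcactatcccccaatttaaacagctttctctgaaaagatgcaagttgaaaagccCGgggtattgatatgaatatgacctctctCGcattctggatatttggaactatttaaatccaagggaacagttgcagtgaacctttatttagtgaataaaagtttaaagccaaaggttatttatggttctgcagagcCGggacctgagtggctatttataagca
Hoxb8 upstream: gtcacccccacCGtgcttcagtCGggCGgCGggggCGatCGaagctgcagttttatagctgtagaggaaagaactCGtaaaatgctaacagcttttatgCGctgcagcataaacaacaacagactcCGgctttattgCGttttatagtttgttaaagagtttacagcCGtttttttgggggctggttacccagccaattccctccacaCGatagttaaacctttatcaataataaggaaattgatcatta
The 3 were picked for this contrast, and other upstream sequences go the other way. Hoxb1, listed at 0 in untreated cells, had 22.8% within 1 kb of its start, while the sequences of the transcribed genes Hoxd13, Hoxd3 and Hoxd9 had means of 0.871%, 0.545% and 4.94%. RefSeq promoter sequences (GRCm38.p6, 300 bases each) were given for 22 of the 38 genes. These 24 sequences held a median of 14.5 CpGs, from 4 to 45, against 7 over all 32546 promoter sequences.

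The ATF4 peaks of the 3 genes whose RNA was higher after thapsigargin are shown next. They are NCBIM37 sequences on the plus strand, which is also the strand of these genes, again with CpGs in capitals. The Hoxb9 peak is given by its central 300 bases, chr11:96132924-96133223, in a coding exon. The Hoxb2 peak, chr11:96214485-96214773, lies in a coding exon as well and the Hoxc13 peak, chr15:102752384-102752601, in an intron.
Hoxb9 peak: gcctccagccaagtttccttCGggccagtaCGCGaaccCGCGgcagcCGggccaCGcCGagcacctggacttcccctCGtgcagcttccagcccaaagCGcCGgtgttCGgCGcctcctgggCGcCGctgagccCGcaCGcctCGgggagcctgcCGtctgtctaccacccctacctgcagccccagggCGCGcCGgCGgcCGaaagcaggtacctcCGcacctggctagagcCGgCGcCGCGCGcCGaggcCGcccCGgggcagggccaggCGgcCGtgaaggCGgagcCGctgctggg
Hoxb2 peak: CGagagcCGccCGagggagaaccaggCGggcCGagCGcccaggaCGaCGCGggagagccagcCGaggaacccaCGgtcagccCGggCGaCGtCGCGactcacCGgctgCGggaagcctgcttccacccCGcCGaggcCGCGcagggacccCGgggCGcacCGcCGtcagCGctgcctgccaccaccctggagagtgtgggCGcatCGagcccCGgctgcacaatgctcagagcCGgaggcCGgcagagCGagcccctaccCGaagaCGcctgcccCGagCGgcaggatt
Hoxc13 peak: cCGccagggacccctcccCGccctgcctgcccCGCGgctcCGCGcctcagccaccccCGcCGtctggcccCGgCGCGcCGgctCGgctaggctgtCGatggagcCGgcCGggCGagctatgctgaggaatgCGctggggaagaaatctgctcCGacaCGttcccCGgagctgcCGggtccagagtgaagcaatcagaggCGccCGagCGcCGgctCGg
These stretches held 37, 37 and 27 CpGs in that order, with mean methylation of 0.338%, 0.595% and 2.28% in untreated cells. All 3 were low in methylation before the treatment.

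The fibroblast cultures held RNA of HOX genes of all 4 clusters. Values are FPKM, fragments scaled to transcript length and library size, and a gene at FPKM 1 or more was counted as expressed. By that measure 24 of 38 genes were expressed in untreated and 22 in thapsigargin cells, and 28 in at least 1 of them. Summed FPKM in untreated cells was 14.0 for Hoxa, 36.6 for Hoxb, 47.6 for Hoxc and 34.7 for Hoxd. Genes of groups 4 to 8 held 73.3 of it, those of groups 9 to 13 held 42.8 and those of groups 1 to 3 held 16.7. The highest level in untreated cells was that of Hoxd8 at 19.9, followed by Hoxc8 at 15.7, Hoxc6 at 11.3, Hoxb9 at 10.9 and Hoxc10 at 7.59. The authors' confidence bounds separated Hoxd8 from Hoxc8 and Hoxc8 from Hoxc6, and overlapped between Hoxc6 and Hoxb9. Below Hoxc10 the bounds of most neighbours in the order overlapped, from Hoxd9 at 6.57 down to Hoxc4 at 4.05. After thapsigargin the order began with Hoxb9 at 59.3, Hoxd8 at 21.9, Hoxc6 at 18.0, Hoxb2 at 16.2 and Hoxc9 at 12.0, and the bounds of these 5 did not overlap.

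The 10 genes under FPKM 1 in both libraries were of several groups. Hoxb1, a hindbrain gene, and Hoxc12 were listed at 0 in untreated cells and had 1 implied fragment each after thapsigargin. Hoxb13, a gene of the tail and the prostate, had FPKM 0.0129 and 0.0123. Hoxa13, a gene of the digits and the genital tract, had 0.207 and 0.0371, and Hoxd12 had 0.112 and 0.0209. Hoxa6 had 0.312 and 0.0802 and Hoxa4 0.173 and 0.533. Hoxa3, Hoxd1 and Hoxd11 came nearest to the threshold, with 0.467 and 0.671, 0.441 and 0.929, and 0.651 and 0.561. Of the posterior groups 12 and 13, Hoxd13 was at FPKM 1 or more in untreated cells (1.32) and Hoxc13 in thapsigargin cells (2.84).

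**Figure D1:**
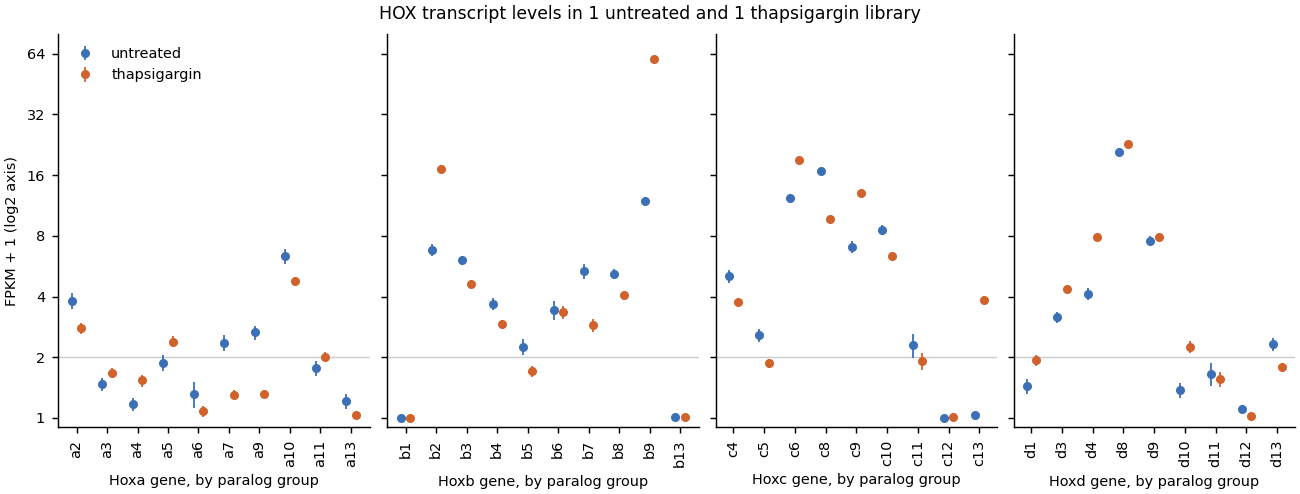
FPKM + 1 on a log2 axis of the 38 HOX genes, by cluster and paralog group, in the untreated (blue) and the thapsigargin (orange) RNA library. Points are single libraries, bars the authors' confidence bounds, and the grey line marks FPKM 1; Hoxb9 moves from 10.9 to 59.3 FPKM, and Hoxc13 from 0.0386 to 2.84.

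After thapsigargin 3 HOX genes were higher and 1 was lower by the rule used here, a change of 1 or more on the log2(FPKM + 1) scale in genes expressed in at least 1 library. With 1 library per condition no test across replicates was possible, and culture, library and treatment cannot be told apart. Hoxb9, which patterns the thoracic ribs and breastbone, went from FPKM 10.9 to 59.3, a change of 2.35. Hoxc13, a regulator of hair keratin genes and nails, went from 0.0386 to 2.84, a change of 1.89. Hoxb2, a gene of the hindbrain and the facial nerve, went from 5.83 to 16.2, a change of 1.33. Hoxa9, a thoracic and blood progenitor gene, went from 1.66 to 0.317, a change of -1.01. Among the 12207 expressed entries of the whole table, 6.02% were higher and 28.2% lower by the same rule. The members' 3 of 28 higher and 1 of 28 lower stand beside those shares. Relative to genes of like exon junction density, 4 of the 28 were higher, with Hoxd4 added, and 0 lower. The shares on that scale were 12.2% higher and 10.4% lower.

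Fragments implied by the confidence bounds give the counting error of each ratio of thapsigargin over untreated FPKM. Hoxb9 had 1887 and 21389 fragments and a ratio of 5.46, with a 95% interval of 5.21 to 5.72. Hoxc13 rested on 6 fragments in untreated cells and 916 after thapsigargin, with a ratio of 73.5 and an interval of 33.6 to 201. Hoxb2 had a ratio of 2.78 with an interval of 2.55 to 3.04. For Hoxa9 the untreated value was 5.22 times the thapsigargin value, with an interval of 4.10 to 6.69. These intervals cover counting error only, not the spread between cultures. Among all expressed entries, 98.7% had a smaller change than Hoxb9, 98.2% than Hoxc13 and 96.4% than Hoxb2, whereas 27.7% had a smaller, that is more negative, change than Hoxa9. Of the exon bases of Hoxb2, 58.6% overlap the antisense gene Hoxb3os, and whether counting used strand is not given in the sources used here, so the fragments of the 2 genes cannot be told apart. Hoxb9, Hoxc13 and Hoxa9 share no exon base with another gene of the GENCODE vM1 annotation. The Hoxa9 call ended under another scaling: its change was -0.62 after centring on entries of moderate or high level and -0.66 relative to genes of like exon junction density.

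**Figure D2:**
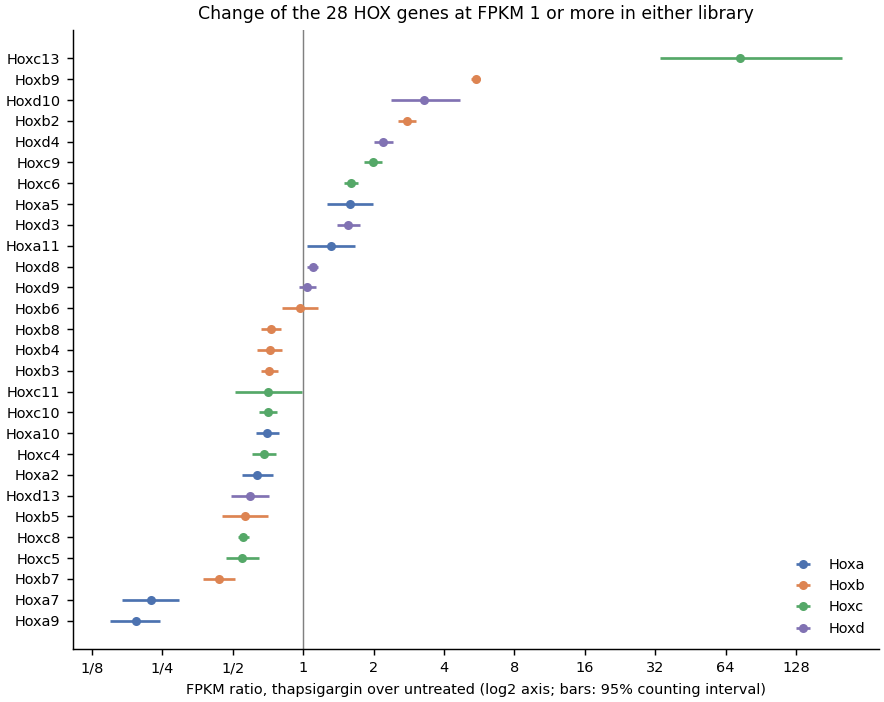
Ratio of FPKM after thapsigargin to FPKM in untreated cells (log2 axis) for the 28 expressed HOX genes, coloured by cluster. Points are ratios of 1 library to 1 library and bars 95% counting intervals; Hoxc13 stands at 73.5 with a wide bar, and Hoxb6 and Hoxd9 are the genes whose bars include 1.

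The other 24 expressed genes stayed within 1 on the log2(FPKM + 1) scale, which understates changes of low genes. By the ratio of FPKM itself, Hoxa7 (0.223), Hoxb7 (0.437), Hoxd4 (2.20) and Hoxd10 (3.29) changed more than 2-fold. By counting error alone, the interval of the ratio lay above 1 for 11 of the 28 expressed genes and below 1 for 15, and it included 1 for Hoxb6 and Hoxd9. The median change of the 28 was -0.29, with 12 positive and 16 negative values, against a median of -0.52 over all expressed entries. Entries that reached FPKM 5 in each library had a median change of -0.40. Measured against that shift, 18 of the 28 changes were positive and 10 negative, so the split of directions depends on the scaling.

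In the Hoxa cluster Hoxa9 was joined by Hoxa7, a thoracic gene, which went from FPKM 1.36 to 0.303, a log2 change of -0.86. Hoxa10, a gene of the lumbar spine and the uterus, went from 5.33 to 3.75 and Hoxa2, which sets the skeleton of the second pharyngeal arch, from 2.81 to 1.79. Hoxa5, a gene of the lung and the neck vertebrae, went from 0.882 to 1.39, and Hoxa11, a gene of the forearm, from 0.764 to 1.00. Summed FPKM of the cluster was 14.0 and 9.87. Part of Hoxa11, 33.8% of its exon bases, overlaps the antisense transcript Hoxa11as, which was at 0.652 and 0.257.

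In the Hoxb cluster the 2 higher genes stood at places apart, with 6 expressed genes of negative change between them. Hoxb7 went from 4.34 to 1.89, a log2 change of -0.88, which is among the values nearest to the threshold. Hoxb8 went from 4.19 to 3.05, Hoxb5 from 1.25 to 0.708, and Hoxb4, known for its action in blood stem cells, from 2.67 to 1.92. Hoxb3, a gene of the hindbrain and the throat, went from 5.04 to 3.60, and Hoxb6 stood at 2.42 and 2.35. Neighbours on the chromosome thus differed: Hoxb9 had 5.46 times its untreated level and Hoxb8 0.727 times. Of the exon bases of Hoxb8, 40.4% are shared with Hoxb7, and of those of Hoxb3, 37.9% with Hoxb3os. The values of Hoxb8 and Hoxb3 could thus hold fragments of these other genes. The cluster sum was 36.6 and 89.1, of which Hoxb9 made 10.9 and 59.3.

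In the Hoxc cluster Hoxc9 and Hoxc6 had higher and Hoxc8 a lower value after thapsigargin, all 3 short of the threshold. Hoxc9, a thoracic gene, went from 6.04 to 12.0, a log2 change of 0.89, and Hoxc6 from 11.3 to 18.0, a change of 0.63. Hoxc8, a gene of the lower thorax, went from 15.7 to 8.72, a change of -0.78. Hoxc10, a gene of the hind limb, went from 7.59 to 5.37, Hoxc4 from 4.05 to 2.74, Hoxc5 from 1.57 to 0.863 and Hoxc11 from 1.30 to 0.918. The cluster sum was 47.6 and 51.5.

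In the Hoxd cluster 5 of 6 expressed genes had a positive change, and the median was 0.30 against -0.43 in Hoxa, -0.34 in Hoxb and -0.34 in Hoxc. Hoxd4 went from 3.11 to 6.85, a log2 change of 0.93 just under the threshold, and Hoxd3 from 2.15 to 3.36. Of the exon bases of Hoxd4, 67.4% are shared with Hoxd3, so the authors' counting could have split reads between them. Hoxd10, a gene of the limbs and of lumbar motor neurons, went from 0.379 to 1.25, a ratio of 3.29 with an interval of 2.37 to 4.66. Hoxd8 stood at 19.9 and 21.9 and Hoxd9 at 6.57 and 6.85. Hoxd13, a digit gene, went from 1.32 to 0.780, the 1 expressed gene of the cluster with a negative change.

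Paralogs of a group shared a direction in some groups and not in others. In group 9, Hoxb9 was higher and Hoxa9 lower by the rule, with changes of 0.89 for Hoxc9 and 0.05 for Hoxd9. In group 13, Hoxc13 was higher and Hoxd13 changed by -0.38. In group 7 both genes had negative changes, -0.86 for Hoxa7 and -0.88 for Hoxb7. Over groups 4 to 8, 9 of 13 expressed genes had a negative change and the summed FPKM was 73.3 and 71.3. Over groups 9 to 13, 5 of 11 expressed genes had a negative change and the sum was 42.8 and 95.0. Without Hoxb9 that sum was 32.0 and 35.7.

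Of 25 non-HOX transcripts looked up, 14 had an expression entry, and 2 of these reached FPKM 1 in untreated cells. The entries Gm14393, Mir148a, Mir152 and 5730457N03Rik among them lie outside the cluster spans. Those without an entry, such as Hoxb3os, have no value here. Gm53, beside Hoxb9, had FPKM 5.75 and 4.80, and Mira, beside Hoxa7, had 2.42 and 1.47. The entry 2700086A05Rik, which overlaps Hoxa3, had 0.0224 and 0.0955, and 1700109F18Rik, which overlaps Hoxd3, was listed at 0 and at 0.0905. The entries of the microRNAs Mir10a, Mir10b, Mir196a-1, Mir196a-2, Mir196b and Mir615 were listed at 0 in both libraries. Of 14 expressed genes beside the clusters, 7 were lower and 1 higher, with a median change of -1.02. Over all expressed entries 28.2% were lower and 6.02% higher. Relative to genes of like exon junction density, 4 of the 14 were lower and 2 higher, with a median of -0.26. The shares on that scale were 10.4% lower and 12.2% higher. The genes beside the clusters that changed most before adjustment were Atp5g2 (47.2 and 0.0890) and Hnrnpa1 (44.7 and 5.46) beside Hoxc and Mtx2 (46.4 and 13.6) and Atp5g3 (279 and 102) beside Hoxd. The call of Atp5g3 ended on the adjusted scale (-0.49).

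The partners and regulators of HOX genes were mostly expressed. Of 8 TALE genes 7 were expressed, 2 were lower and 0 higher, with a median change of -0.77 beside the -0.52 of all expressed entries. Over all expressed entries 28.2% were lower and 6.02% higher. Pbx2 went from FPKM 14.9 to 5.88 and Meis3 from 17.4 to 7.36. Meis2 had 8.35 and 4.36, and Meis1 13.7 and 7.62, both short of the threshold. All 26 Polycomb genes were expressed, with 7 lower, 1 higher and a median change of -0.46. Ezh2, the histone methyltransferase of the second Polycomb complex, went from 13.7 to 2.19 and Pcgf3 from 20.2 to 4.04. Cbx6, a reader of its mark, went from 49.9 to 16.5 and Pcgf1 from 3.46 to 0.671. The most abundant of the list, Rbbp7, had 57.2 and 32.7. Jarid2, which guides that complex and was the 1 gene of the list that was higher, went from 3.52 to 8.52. Among the 12 Trithorax and demethylase genes 2 were lower, Ash2l from 25.6 to 11.2 and Kdm6a from 6.38 to 2.53, and the median was -0.49. Relative to genes of like exon junction density, the shares over 11756 expressed entries were 10.4% lower and 12.2% higher. The Polycomb median turned to 0.20 on that scale, with 2 genes lower (Pcgf3 and Cbx6) and 5 higher. The calls of Ezh2 (-0.87), Pcgf1 (0.26), Ash2l (0.06), Kdm6a (-0.28), Pbx2 (-0.86) and Meis3 (-0.18) ended, and the medians were -0.18 for the TALE and -0.00 for the Trithorax list.

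Of 18 retinoic acid genes 13 were expressed, 6 were lower and 1 was higher, with a median of -0.98. The shares over all expressed entries were 28.2% lower and 6.02% higher. The receptors Rxra and Rara went from 28.5 to 8.84 and from 20.4 to 6.89, Rxrg from 2.59 to 0.483 and the enzyme Rdh10 from 12.3 to 4.84. Crabp1, a retinoic acid binding protein and the most abundant of the list, went from 166 to 77.3. The 1 higher gene was Aldh1a3, which makes retinoic acid, with 1.41 and 4.46. Relative to genes of like junction density 1 gene of the list was lower, Rara, 1 was higher, Aldh1a3, and the median was -0.52. The shares on that scale were 10.4% lower and 12.2% higher. The homeobox genes of the ParaHox and Evx families, relatives of the HOX genes, were not expressed, at FPKM 0.0133 or less in all 8.

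Other homeobox and T-box genes that mark body position were also looked up: of 52, 31 were expressed, 3 were higher and 2 lower, with a median change of -0.21. Shares over all expressed entries were 6.02% higher and 28.2% lower. Relative to genes of like junction density the list again had 3 higher and 2 lower, beside 12.2% higher and 10.4% lower over all. Meox1, a gene of somites, went from 1.61 to 7.83, Irx3 from 8.73 to 27.3 and Twist2, a dermal fibroblast gene, from 50.2 to 106. Shox2, a gene of the proximal limb, went from 10.0 to 2.37 and Barx1 from 2.52 to 0.508. Twist1 was at 94.0 and 89.6 and was the most abundant of the list in untreated cells. The limb genes that follow were chosen after their values were seen. Tbx5 of the forelimb stood at 1.51 and 1.15, Tbx4 of the hind limb at 1.53 and 0.915, and Pitx1 of the hind limb at 0.934 and 0.542.

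The cultures held RNA of several cell types. All 13 fibroblast markers were at FPKM 1 or more in untreated cells, and 9 of them were lower after thapsigargin, or 5 relative to genes of like junction density. For these and the marker counts below, the shares over all expressed entries were 28.2% lower and 6.02% higher. On the junction scale they were 10.4% and 12.2%. Fap went from 13.9 to 0.772, Col1a1 from 6473 to 884, Lum from 136 to 23.4 and Col3a1 from 3000.3 to 562. The summed FPKM of 10 keratinocyte markers was 29.7 in untreated and 2.54 in thapsigargin cells, with 6 of 8 expressed markers lower. Krt17 went from 7.17 to 0.330, Krt14 from 6.39 to 0.495, Krt6a from 3.99 to 0.0605 and Epcam from 3.21 to 0.0853, while Krt1 was listed at 0 and at 0.00924. Macrophage and leukocyte markers moved in both directions: of 8 expressed, 2 were lower and 1 higher. H2-Aa went from 57.8 to 0.0392, Cd74 from 143 to 5.61 and Cd14 from 14.8 to 111, and Csf1r had 20.5 and 36.5. Their sum, 1221 and 1189, was mostly Lyz2 at 879.7 and 951. Of 4 expressed melanocyte and Schwann cell markers 3 were lower, Erbb3 from 7.81 to 0.0728, Sox10 from 23.4 to 4.31 and Mlana from 1.76 to 0.0490, and the sum of the list was 38.4 and 9.39. Muscle and pericyte markers summed to 1236 and 550.4, mostly Acta2 at 1124 and 475. Of 7 expressed, 3 were lower and 1 higher. Actc1 went from 55.5 to 23.1. The pericyte marker Cspg4 went from 5.82 to 17.4, while Rgs5, also a pericyte marker, was not expressed, at 0.428 and 0.0428. Of 6 endothelial markers only 2, Erg and Eng, reached FPKM 1 in untreated cells, with 3.55 and 0.934, and 18.3 and 9.31. The median of the 6 in untreated cells was 0.785. The adipocyte marker Fabp4 went from 12.8 to 1.49, and Pparg and Lipe had 2.24 and 4.75, and 2.14 and 2.76. Their part in the HOX values was not tested. In bulk RNA, fewer cells of a type and less RNA per cell cannot be told apart.

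The HOX clusters were poor in CpG methylation. Over the 4 spans, 501 kb with 12100 measured CpGs, mean methylation was 20.9% and 62.5% of CpGs were under 20%, while 2.99% reached 80%. Over the genome the mean was 65.6%, with 12.7% of CpGs under 20% and 42.5% at 80% or more. Hoxc was the least methylated cluster, with a mean of 13.7%, followed by Hoxa at 20.6%, Hoxd at 21.4% and Hoxb at 25.8%. The percentages pool both bisulfite libraries and carry no coverage, so no interval could be given.

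Loci of the 38 genes with 2 kb on either side had a median methylation of 15.1%, against 61.7% over all entries. The lowest was Hoxa13 at 4.08% and the highest Hoxd4 at 45.5%. Under 20% were 26 of 38 loci, against 4.16% of 23219 entries. HOX loci are short and dense in CpGs, with a median of 30.4 CpGs per kb against 12.0 for all entries. Among 3762 entries in the range of the members' length and CpG density, 14.3% were under 20% and the median was 39.7%. By position in the cluster, 15 of 16 loci of groups 9 to 13 were under 20%, 10 of 15 of groups 4 to 8 and 1 of 7 of groups 1 to 3. The medians were 10.9%, 18.4% and 30.1% in that order. These loci are not all separate DNA: the long Hoxa3 locus spans Hoxa4, Hoxa5 and Hoxa6, and that of Hoxd3 spans Hoxd4. Their CpGs thus count both in groups 1 to 3 and in groups 4 to 8.

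**Figure D3:**
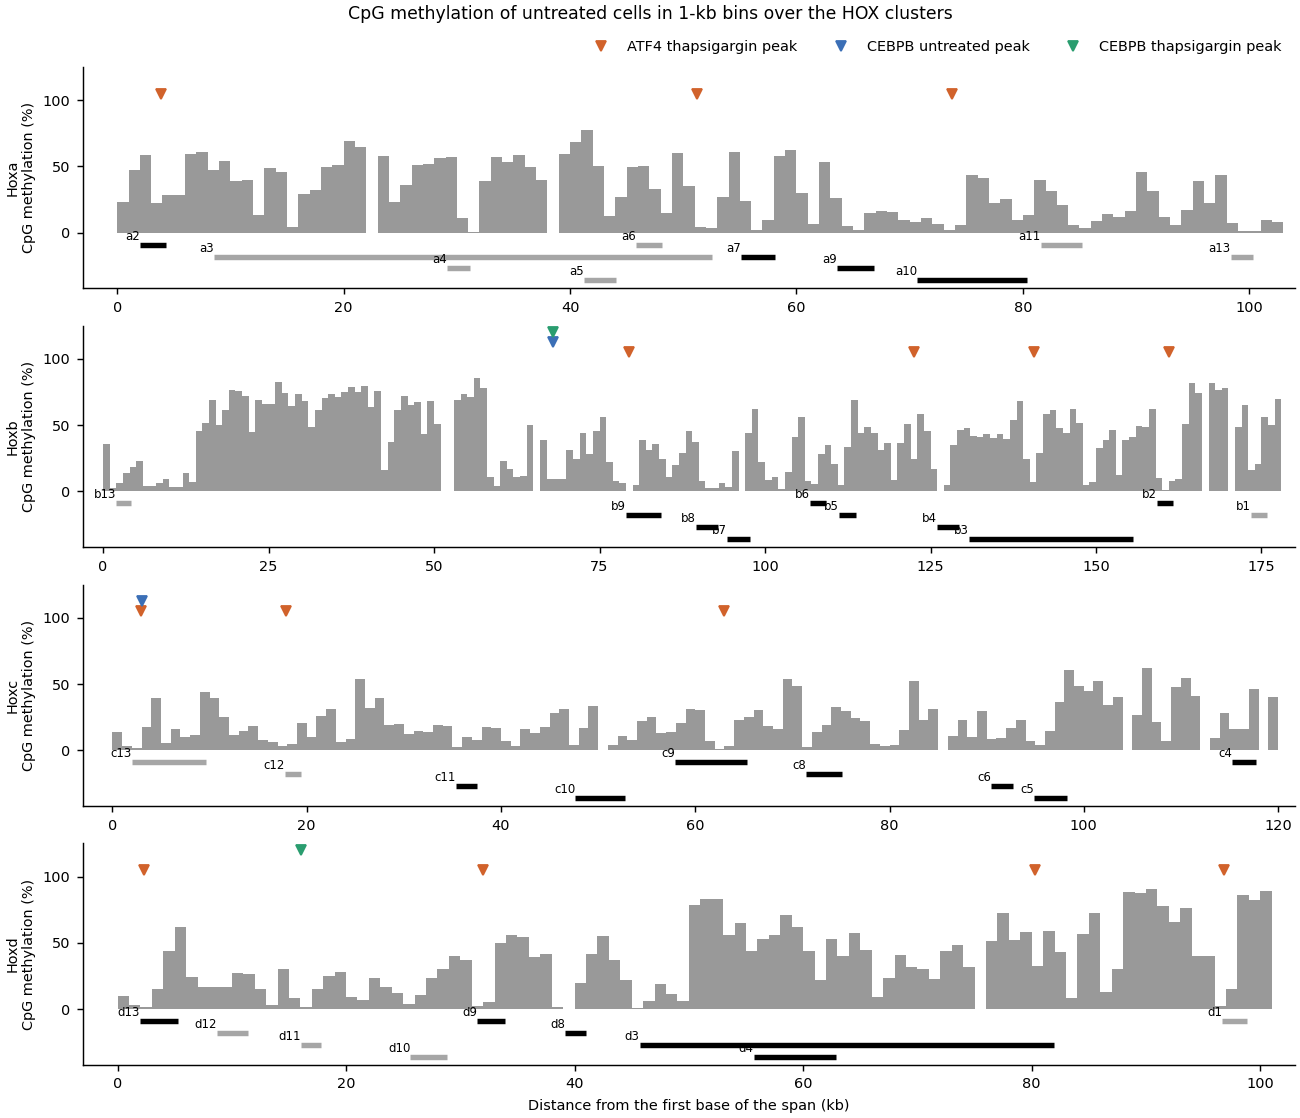
Mean CpG methylation of untreated cells in 1-kb bins (grey bars) along each cluster span, by distance from its first base; gaps are bins with fewer than 3 measured CpGs. Horizontal bars below are genes, black at FPKM 1 or more in untreated cells and grey below it, and triangles above are peaks; Hoxc has 7 bins at 50% or more and Hoxb 58.

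The methylation between genes was uneven. A stretch of 10 kb between Hoxb13 and Hoxb9, chr11:96085675-96095674, had a mean of 73.6% over 115 CpGs, and 8 kb next to it had 70.4%. In Hoxd, 6 kb between Hoxd3 and Hoxd1, chr2:74592367-74598366, had 82.2% over 43 CpGs, and 5 kb before Hoxd4, within the long Hoxd3 locus, had 72.6%. Bins of 1 kb at 50% or more numbered 58 of 172 in Hoxb, 31 of 100 in Hoxd, 25 of 101 in Hoxa and 7 of 115 in Hoxc. Bins under 20% numbered 65 of 115 in Hoxc, 38 of 101 in Hoxa, 51 of 172 in Hoxb and 33 of 100 in Hoxd. In Hoxc all bins that begin 30 to 44 kb from the first base of the span were under 20%. Unbroken runs of low CpGs were short. A single CpG at 20% or more ends a run, and no limit was set on the distance between its CpGs. Run length thus does not measure how far low mean methylation extends. The longest run of consecutive CpGs under 20% spanned 2.69 kb with 187 CpGs at Hoxa10, and 9 runs in the clusters reached 2 kb. None reached 4 kb, a length that 763 runs of the genome reached. Runs of more than 2 kb also lay over Hoxa3, Hoxa13, Hoxb4, Hoxb9, Hoxd13 and Hoxd8.

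At gene starts methylation was low whether or not the gene was transcribed. Within 1 kb of the start the median was 7.18%, from 0.739% at Hoxd8 to 49.1% at Hoxb3. Under 20% were 31 of 38 starts, against 57.1% of 21551 entries. Among the 14 genes under FPKM 1 in untreated cells, 12 starts were under 20%, whereas 25.3% of all 9899 such entries were. These sets differ in CpGs at the start, with a median of 120.5 in the 14 genes and 27 in the entries. Among the 2350 such entries with 60 to 194 CpGs, the range of the 14 genes, 85.4% were under 20%, a share near that of the 14 genes, and the median was 6.28%. The median of the 14 was 4.89%, and that of the 24 transcribed genes was 9.48%. Over all entries the medians had the other order, 57.8% under FPKM 1 and 5.42% at or above it. The silent Hoxa13 had 1.36% over 194 CpGs, Hoxc12 had 4.22% over 104 and Hoxb13 had 4.48% over 65.

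The 3 genes that were higher after thapsigargin had starts at 2.41% (Hoxb9), 2.18% (Hoxc13) and 14.2% (Hoxb2) in untreated cells. Hoxa9 had 14.6%. Starts at 20% or more were those of Hoxb3 (49.1%), Hoxd4 (46.8%), Hoxa7 (30.1%), Hoxb8 (28.7%), Hoxb1 (22.8%), Hoxa2 (22.2%) and Hoxa6 (21.8%), and 5 of these 7 were transcribed. Hoxb1 was the most methylated start of the genes under FPKM 1 in both libraries and Hoxa13 the least. Some of these genes have other annotated starts: taking the least methylated start of each gene, 34 of 38 were under 20%. All 16 starts of groups 9 to 13 were under 20%. Across the 38 genes start methylation and untreated FPKM had a Spearman rho of 0.117, and across 21551 entries of -0.624. Both are descriptions across genes of the same libraries, and genes are not independent replicates.

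**Figure D4:**
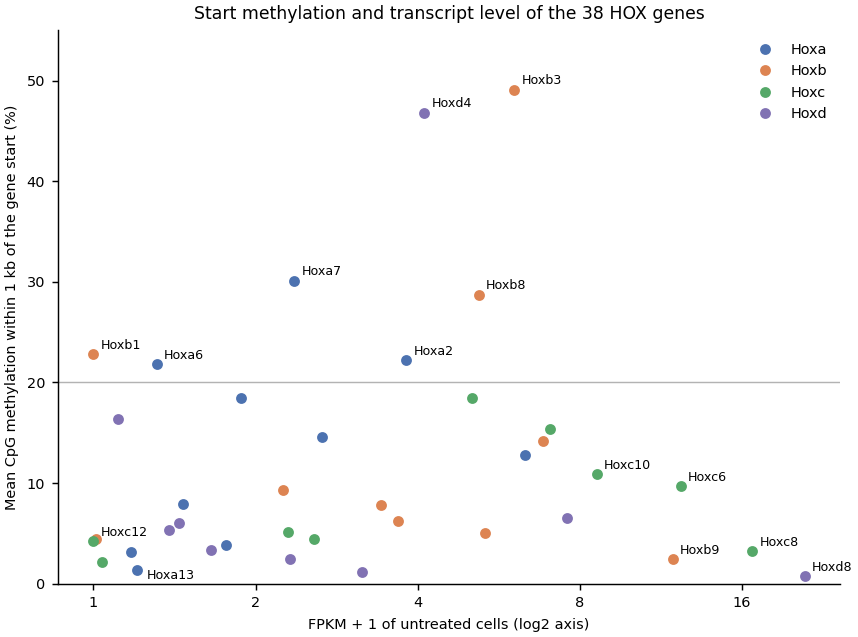
Mean CpG methylation within 1 kb of the start against FPKM + 1 of untreated cells (log2 axis) for the 38 HOX genes, coloured by cluster. Each point is 1 gene, and the grey line marks 20%; Hoxb3 and Hoxd4 stand at 49.1% and 46.8%, and Hoxa13 and Hoxc12 combine low levels with low methylation.

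ATF4 peaks of thapsigargin cells were frequent in the clusters, at 14 peaks or 2.80 per 100 kb, against 0.380 per 100 kb over the genome. Hoxa held 3, Hoxb 4, Hoxc 3 and Hoxd 4 of them. The CEBPB lists had 2 peaks each in the clusters, 0.399 per 100 kb, against 0.276 over the genome in untreated and 0.296 in thapsigargin cells. The scores are the authors' and were used to rank peaks within a list. The highest ranked ATF4 peak of the clusters was that of Hoxb2, with a score of 10.37 and rank 918 of 10109. It was followed by Hoxd1 at 8.18, Hoxd9 at 6.82 and a peak between genes near Hoxb4 at 6.51. The lowest was that of Hoxa10 at 2.53, rank 9923.

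Of the 14 ATF4 peaks 10 had their centre in a coding exon of a HOX gene, against 23.5% of the 10099 ATF4 peaks on numbered and sex chromosomes. These exons were of Hoxa2, Hoxa10, Hoxb9, Hoxb2, Hoxc12, Hoxc9, Hoxd13, Hoxd9, Hoxd3 and Hoxd1. The remaining 4 lay in introns of Hoxa3, Hoxb3 and Hoxc13 and between genes. The 14 peaks had a median of 12.4 CpGs per 100 bases and of 1.39% methylation, against 10.6 and 0.171% over all ATF4 peaks. Methylation was not low in all: 13 of the 14 were under 20%, with 17.1% in the peak near Hoxb4 and 11.2% in that of Hoxa2.

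Within 1 kb of the start, 7 of 38 genes had an ATF4 peak, against 31.3% of 21746 entries: Hoxa2, Hoxb9, Hoxc12, Hoxc13, Hoxd1, Hoxd9 and Hoxd13. The high density over the clusters and this share at starts go in opposite directions relative to the genome. The peaks of Hoxb9 and Hoxc13 centred 429 and 930 bases after the start, and that of Hoxb2 1683 bases after it. Within 1 kb of the start, 2 of the 3 genes with higher RNA thus had an ATF4 peak, and Hoxa9 had none. ATF4 peaks also lay at genes that were not transcribed or not changed: Hoxc12 was listed at 0 and at 0.0105, Hoxd9 had 6.57 and 6.85. Genes of any level included, the 7 had a median change of 0.05, from -0.45 to 2.35, and the 31 others a median of -0.12, from -1.01 to 1.33. Over all entries with a start, 42.6% of those higher, 43.1% of those lower and 50.1% of the expressed others had an ATF4 peak within 1 kb.

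The 2 CEBPB peaks of each list in the clusters were not fewer per 100 kb than over the genome (0.399 against 0.276 untreated and 0.296 with thapsigargin). Within 1 kb of a start, the untreated list had a peak at 1 of 38 genes, Hoxc13, against 3.11% of entries. The thapsigargin list had one at 1 of 38, Hoxd11, against 2.62%. The untreated Hoxc13 peak, chr15:102752452-102752765, overlapped the ATF4 peak shown above and ranked 7244 of 7317. The thapsigargin list had no peak there. A site in an intron of Gm53, 10947 bases before Hoxb9, was listed in both states, at chr11:96121616-96121779 in thapsigargin cells, where it ranked 1361 of 7861, and ranked 7081 in untreated cells. The Hoxd11 peak, chr2:74520323-74520489, covered the start of the gene. All 4 lay in DNA of low methylation, from 1.47% to 3.73%.

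Short bZIP and HOX motifs were searched on both strands of the 18 peaks. None of the letters TGATGCAA (the C/EBP-ATF response element), TGACGCAA, TTGCGCAA, TGACGTCA (the cAMP response element), TGATTGAT or TGATTTAT (PBX-HOX sites) was in any of them. In windows of 200 bases around the centre of every ATF4 peak, TGATGCAA was in 0.574% and TGACGTCA in 1.23%, so these exact letters were rare in the whole list. TGATGCAA was in 6.56% of the windows of untreated and 7.67% of those of thapsigargin CEBPB peaks. Among the 24 promoter sequences of HOX genes, TGATTGAT was in those of Hoxa2 and Hoxd11, against 0.750% of all promoter sequences. No match says only that these letters are not in these windows.

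Depth and quality of the libraries bear on the low genes. The bounds implied 53915048 fragments in genes of the untreated and 78944295 of the thapsigargin library. The median was 257 fragments over the 36 HOX genes above 0 in the untreated library and 327 over all 38 in the thapsigargin library. Every one of the 38 had a status of OK in both tables. Over all entries the status was a failed estimate for 6 in the untreated and 95 in the thapsigargin table.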

How the data were processed

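RNA, CEBPB and ATF4 immunoprecipitation and bisulfite libraries were processed by the submitters on mm9 with CASAVA 1.8.2 and Bowtie (RNA), CASAVA 1.7, BWA and SAMtools (immunoprecipitation) and CASAVA 1.8 and Novoalign (bisulfite), per the submitters' processing notes. The sources used here give no versions of the others and do not name the peak caller, its control or the expression program. FPKM with confidence bounds, the score of each peak and the percent methylation per cytosine, without coverage, were deposited by the authors. The 2 bisulfite libraries were pooled by the authors.

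Genes were matched to GENCODE vM1 for strand and exons; the gene start is the 5′ end of the table's locus, known for 21746 entries. Percentages of both strands were averaged per CpG, leaving out 83035 heterozygous entries; 21038567 CpGs had a value, and 99.7% of those in the clusters fell on a CG of the NCBIM37 genome. Changes are differences of log2(FPKM + 1), which understate changes of low genes. Fragments were taken as the square of 2 × FPKM over the distance to the upper bound, and ratio intervals are exact binomial ones of these fragments. A junction-adjusted change subtracts the median of genes of like exon junction density (50 bins of genes at FPKM 5 or more). Peaks were assigned by overlap of 1 bp. Functions were tested on simulated data. Python 3.11.15, NumPy 2.4.6, pandas 2.3.3 and SciPy 1.17.1 were used.

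Named in full were genes that reached FPKM 1 in a library, the most and least methylated start among the others, all peaks and other entries inside the cluster spans with a signal, and up to 4 expressed genes with the largest change and the most abundant gene of each list. 1 gene of the partner list, 1 marker gene and 1 peak's sequence and methylation are not reported here. Members, lists and motifs were chosen with earlier results of these data known. Alternatives tried were the pseudocount, the filter, the scaling, windows, thresholds and, added after seeing the data, overlapping exons, other starts and the comparison of starts of like CpG number.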

Additional observations from a re-analysis of the deposited data

How the results depend on the processing

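Hoxb9 and Hoxb2 were higher by 1 or more under every planned setting, and Hoxc13 under every one that kept it. The count of higher genes was 3 and became 5 with a pseudocount of 0.1 FPKM and 7 after centring on the median change of entries at FPKM 5 or more, with Hoxc6, Hoxc9, Hoxd4 and Hoxd10 added. The count of lower genes was 1 and became 3 with a pseudocount of 0.1 FPKM (Hoxa7 and Hoxb7 added), and 0 with a filter of FPKM 5, after centring and after junction adjustment. Shares over all expressed entries were not computed for the other pseudocount, the filter or the centring. Hoxa9 changed by -0.62 after centring and -0.66 after junction adjustment, in place of -1.01. The median change, -0.29, was -0.45 with a pseudocount of 0.1 FPKM, -0.06 with no filter, and turned to 0.13 with a filter of FPKM 5 and to 0.10 after centring. Without genes that share exon bases with others, 2 were higher, since Hoxb2 drops out. The causes were not tested, beyond the fewer genes a filter leaves.

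The share of cluster CpGs under 20%, 62.5%, was 48.5% for under 10% and 72.2% for under 30%. With 100 kb on either side the clusters held 5 CEBPB peaks in each list in place of 2, and with 20 kb 4 in the thapsigargin list. Among peaks at or above the median score of their list, 7 ATF4, 0 untreated CEBPB and 1 thapsigargin CEBPB peak remained in the clusters, and 0 genes had a CEBPB peak within 1 kb of the start in either list. Within 5 kb of the start 12 genes had an ATF4 peak in place of 7, and 10 had one within 1 kb of any annotated start. The other 30 repeats of these main results stayed within 1.5 times of a count or percent, within 0.1 of the median change, or within the counting interval of the share. No paired analysis was possible because each RNA and immunoprecipitation group has 1 library and the bisulfite libraries are pooled. Without coverage, methylation percentages carry no error.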
